A study of Arabidopsis thaliana with 6 samples.

Results

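The TRICHOME BIREFRINGENCE-LIKE (TBL) genes of Arabidopsis thaliana were followed in suspension-cultured cells with and without isoxaben, a herbicide that blocks cellulose synthesis. Members were the probe sets of exactly 1 gene whose symbol in the platform annotation is TBR or TBL followed by a number, which gave 22 probe sets for 22 genes among 22746 on the array. The rule itself used no measured value, though it was set with earlier results of these data known. No probe set carries the symbol TBR, the gene that gave the family its name. The RefSeq table for TAIR10.1 lists 46 genes of the family by symbol or synonym. Besides the 22 members, 2 of them have probe sets annotated only by locus and are described separately, and the remaining 22 are unnamed here.

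The control group was 3 samples of cultured cells without the herbicide and the treated group was 3 samples given isoxaben, at 0.1 mM by their labels. Both groups grew in Murashige and Skoog medium with 30 g/L sucrose, 0.5 mg/L naphthalene acetic acid, a synthetic auxin, and 0.05 mg/L kinetin, a cytokinin. RNA was hybridised to Affymetrix ATH1 arrays, 1 array per sample, and each probe set has 1 linear signal per array. The labels give neither the length of exposure nor the accession or age of the culture line, and do not say whether replicates came from different flasks. The p-values therefore cover the variation among these arrays alone, part or all of which may be technical.

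TBL proteins sit in the Golgi membrane and most of those studied transfer acetyl groups onto wall polysaccharides such as xylan, glucomannan, xyloglucan and pectin while these polymers are being made. Acetylation changes how the polymers bind cellulose and one another, and how easily enzymes reach them. Family members are known to differ in the polymer they act on, and for many the polymer is not settled.

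The arrays fell into 2 sets by title, the first with 1 array of each group and the second with 2 of each. Isoxaben replicate 1 carries DCB in its source name, although isoxaben is given in its title and treatment field, and it was kept as isoxaben. Control replicate 1 stood apart from the other controls, with 7023 outlier cells reported by the scanner software against 160 to 613 on the other arrays, and with correlations across probe sets of 0.956 and 0.960 to the other controls, which correlated at 0.992 with each other. Its signal was the highest of the controls for 13 of the 22 members and for 53.8% of all probe sets. Of 32 marker genes listed for dividing cells, mesophyll, xylem, trichomes, root hairs and seeds, 2 had a probe set named here, so the cell type was checked against few markers. EXPA7, an expansin of root hairs, had signals of 11.0 to 18.4 on the 6 arrays, all below the filter described next. RCA, the activase of the photosynthetic enzyme Rubisco, rose from 72.0 ± 22.1 (SD, n = 3) in control to 139 ± 37.8 in isoxaben cultures (limma log2 change 0.82 ± 0.21 SE, adjusted p = 0.00802), and its part in the results below was not tested. In such bulk RNA, fewer cells of a type and less RNA per cell cannot be told apart.

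Of the 22 members, 10 had a mean log2 value above the filter on dim probe sets, which corresponds to a signal of 22.1, and 12 were dim and were not tested. Among the 10, TBL36, TBL39 and TBL35 were higher with isoxaben and none was lower (limma, Benjamini-Hochberg adjusted p under 0.05 over 13648 probe sets). At an unadjusted p under 0.05 there were 4, the fourth being TBL18, which was lower. These 3 calls are 30% of the tested members, whereas 56.6% of all tested probe sets were called, 29.4% as higher and 27.2% as lower. All 3 were at least 2-fold higher, a class that held 11.0% of all tested probe sets, with 9.92% at least 2-fold lower. TBL35 was near that limit and fell below it under some alternatives, given below. The control and isoxaben arrays did not overlap for 4 of the 10, compared with 63.2% of all tested probe sets. The median log2 change of the 10 was 0.16, against 0.00824 over all tested probe sets, and the median size of the change without its sign was 0.22 against 0.46. Thus 7 of the 10 changed by less than the typical tested probe set of these arrays, and 3 by more.

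**Figure D1:**
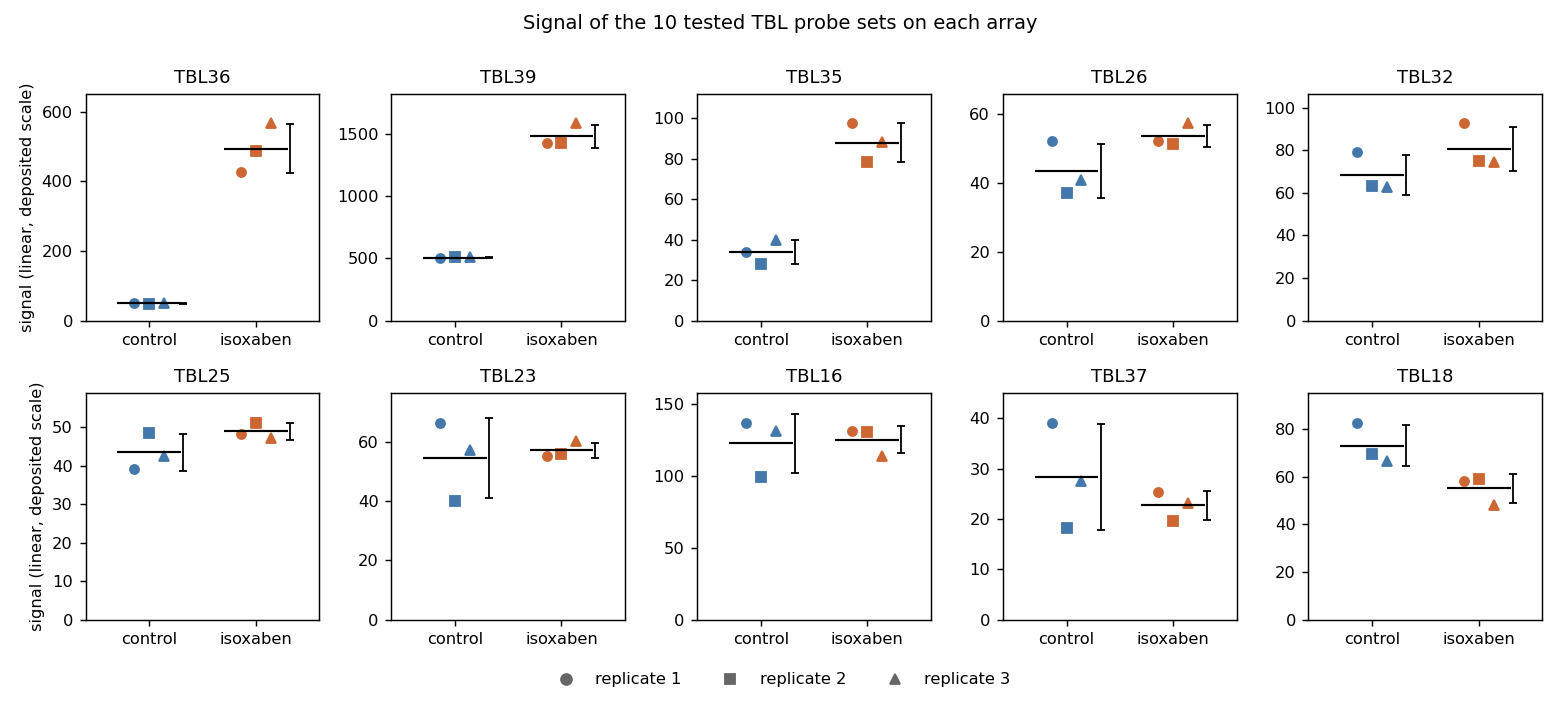
Signal (linear, deposited scale, each panel with its own axis from 0) of the 10 tested TBL probe sets on control and isoxaben arrays, ordered by their change. Symbols mark the replicate, horizontal lines the group means and bars the SD (n = 3). TBL36, TBL39 and TBL35 are clearly parted, and the isoxaben arrays of TBL18 lie just below its controls.

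TBL36, a member whose polymer is not settled, had signals of 51.1, 48.9 and 50.8 on the control arrays and 427.7, 488.7 and 566.8 on the isoxaben arrays. Every isoxaben value lay above every control value, and the 3 controls lay close together. The mean rose from 50.3 ± 1.19 (SD, n = 3) to 494 ± 69.7, a signal ratio of 9.84. On the log2(signal + 16) scale, used for all tests, the change was 2.94 ± 0.12 (SE; limma adjusted p = 9.86e-08, 95% interval 2.66 to 3.21). Of the 13648 tested probe sets, 41 rose more. The log2 difference was 2.73 within the first title set, which has 1 array a group and no test, and 3.04 within the second. Without isoxaben replicate 1 the change was 3.03, and without control replicate 1 it was 2.95.

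TBL39, which likewise has no settled polymer, had signals of 500.0, 510.9 and 511.4 in control and 1426.0, 1428.7 and 1585.1 in isoxaben cultures. The groups did not overlap, and the spread within each was small beside the distance between them. The mean rose from 507 ± 6.44 to 1480 ± 91.1 (SD, n = 3), a ratio of 2.92, with a log2 change of 1.51 ± 0.09 (SE; limma adjusted p = 8.23e-07, 95% interval 1.31 to 1.72). Within the first and second title set the difference was 1.48 and 1.53 on the log2 scale. It was 1.54 without isoxaben replicate 1 and 1.50 without control replicate 1.

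TBL35, an acetyltransferase of xylan, had control signals of 33.9, 28.1 and 39.7 and isoxaben signals of 97.4, 78.2 and 88.2. Its controls lay above the filter signal on every array, and the lowest isoxaben array was well above the highest control. The mean rose from 33.9 ± 5.80 to 87.9 ± 9.60 (SD, n = 3), a ratio of 2.59, and the log2 change was 1.06 ± 0.14 (SE; limma adjusted p = 0.000124, 95% interval 0.75 to 1.37). The title sets gave 1.18 and 0.999. Leaving out isoxaben replicate 1 gave 0.996 and leaving out control replicate 1 gave 1.06. The change was 0.89 with array weights, 0.98 without control replicate 2 and 1.14 without control replicate 3. Its log2 change also depended on the pseudocount, with 1.36 at a pseudocount of 1 and 0.63 at 64. Its place above 2-fold on that scale thus rests on the pseudocount, the weights and the arrays used, though its call did not. The 95% intervals of TBL39 and TBL35 overlap, and the difference between their changes was not tested.

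**Figure D2:**
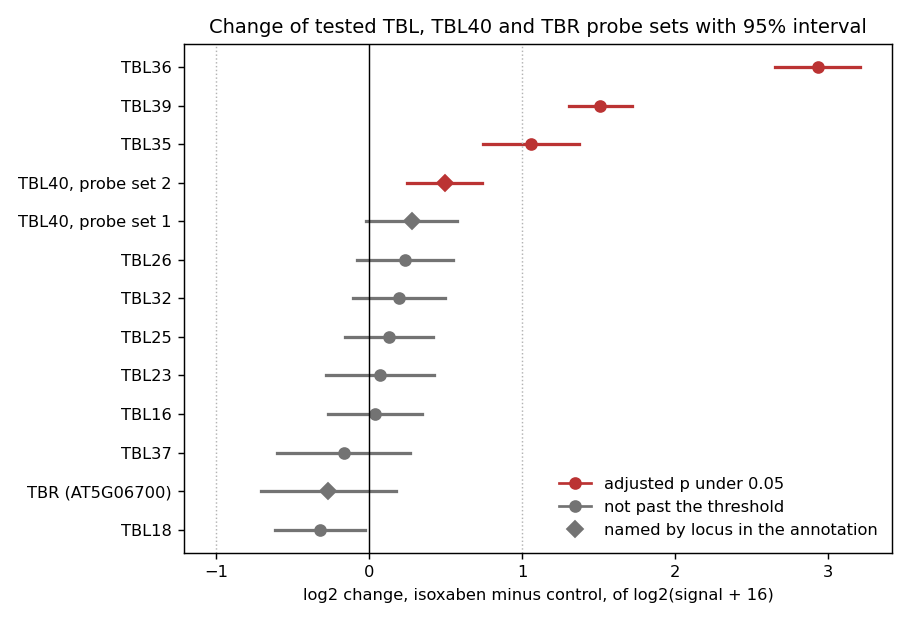
Log2 change, isoxaben minus control, on the log2(signal + 16) scale for the 10 tested TBL probe sets (circles) and the 3 probe sets of TBL40 and TBR that the annotation names by locus (diamonds), with limma's 95% intervals. Red marks an adjusted p under 0.05 and dotted lines mark 2-fold; TBL36 stands at 2.94, and the 7 TBL members in grey lie between -0.32 and 0.24.

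The other 7 tested members had log2 changes between -0.32 and 0.24, with adjusted p from 0.0595 to 0.834 in the limma fit. Their 95% intervals ran from -0.62 to 0.55 at the extremes, so that on this scale the intervals hold no fall of more than 1.53-fold and no rise of more than 1.46-fold.

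Among members for xylan acetylation, TBL32 was the second that could be tested. Its signals were 79.0, 63.3 and 62.8 in control and 92.6, 75.0 and 74.3 in isoxaben cultures, so the groups overlapped. In each title set the isoxaben mean was higher by a similar amount (0.19 and 0.20 on the log2 scale), and the change of 0.20 ± 0.13 did not pass (limma adjusted p = 0.244). Its probe set has the suffix _s_at, which Affymetrix gives to probe sets that match more than 1 transcript, so its signal may include a relative. It is the only such member, as the other 21 end in _at alone. The other xylan members with a probe set named here, TBL28, TBL30 and TBL34, were dim.

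The mannan acetyltransferases with a probe set named here were TBL23, TBL25 and TBL26, and none passed. TBL23 had a mean of 54.6 ± 13.4 in control and 57.1 ± 2.63 in isoxaben cultures, with a log2 change of 0.07 (95% interval -0.29 to 0.42). TBL25 had means of 43.4 ± 4.77 and 48.9 ± 2.08 and a log2 change of 0.13 (-0.16 to 0.42). TBL26 had signals of 52.2, 37.1 and 40.8 in control and 52.1, 51.3 and 57.2 in isoxaben cultures. Control replicate 1 lay among the isoxaben arrays here, and the other controls lay below them. The log2 change of TBL26 was 0.24 ± 0.14 (limma adjusted p = 0.179), and without control replicate 1 it was 0.34 and passed (limma adjusted p = 0.0329). Its difference was -0.00212 in the first title set and 0.35 in the second.

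TBL18, TBL37 and TBL16 complete the tested members, and no polymer is assigned to them here. TBL18 had signals of 82.8, 69.6 and 66.7 in control and 58.2, 59.0 and 48.3 in isoxaben cultures. All isoxaben values lay below all control values, yet the log2 change of -0.32 ± 0.13 fell short of the threshold (limma adjusted p = 0.0595). It passed under 5 of 17 alternatives, with a lowest limma adjusted p of 0.0270 and a highest of 0.190. TBL37, known to respond to the wound hormone jasmonate, had means of 28.3 ± 10.5 and 22.8 ± 2.88 and a log2 change of -0.17 ± 0.19. TBL16 had means of 122 ± 20.4 and 125 ± 9.63 and a log2 change of 0.04 ± 0.14, the smallest of the 10.

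**Figure D3:**
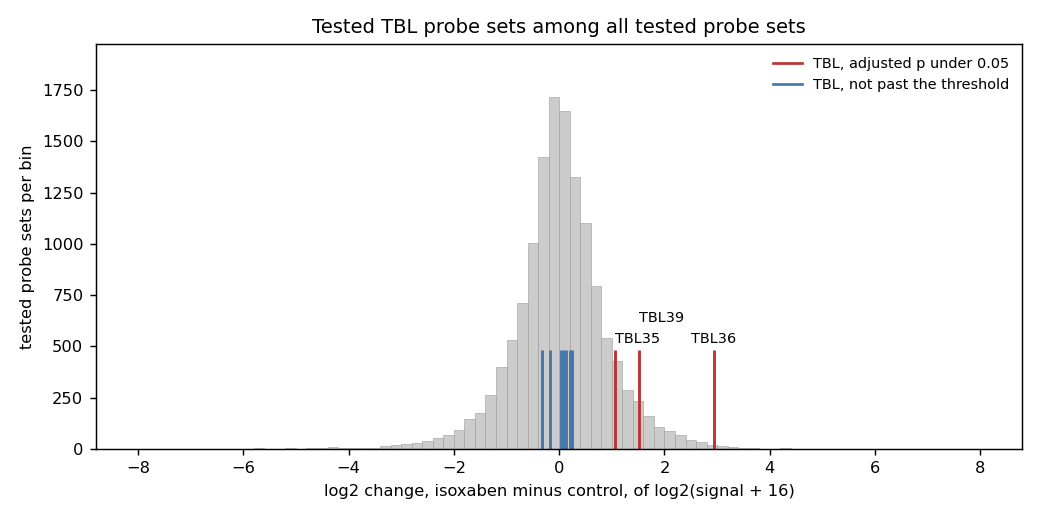
Log2 change, isoxaben minus control, of all 13648 tested probe sets as a histogram (bars, probe sets per bin of the log2(signal + 16) scale), with vertical lines at the 10 tested TBL members. Red lines mark the 3 members past the threshold and blue lines the 7 that were not, which lie near the centre of the distribution.

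The 12 dim members were TBL15, TBL19, TBL20, TBL21, TBL28, TBL30, TBL34, TBL38, TBL41, TBL42, TBL43 and TBL45. Their signals ran from 0.9 to 28.0, and only 2 of the 72 lay above the filter signal of 22.1. They were TBL19 at 28.0 and TBL20 at 27.4, both on control replicate 1, where the same probe sets read 6.2 and 6.3, and 2.5 and 7.6, on the other controls. TBL43 also had its highest signal there, at 21.8 against 10.0 and 2.0. With no filter none of the 12 passed limma (lowest adjusted p = 0.0887), and 1 had an unadjusted p under 0.05. In that fit 34.5% of all probe sets were called, a share over bright and dim probe sets together. It held 7840 calls, against 7726 in the fit with the filter. These totals do not give the number of dim probe sets called, because the adjustment of p differs between the fits. The share over dim probe sets alone was not computed, so the 12 are not said to change less than others as dim.

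**Figure D4:**
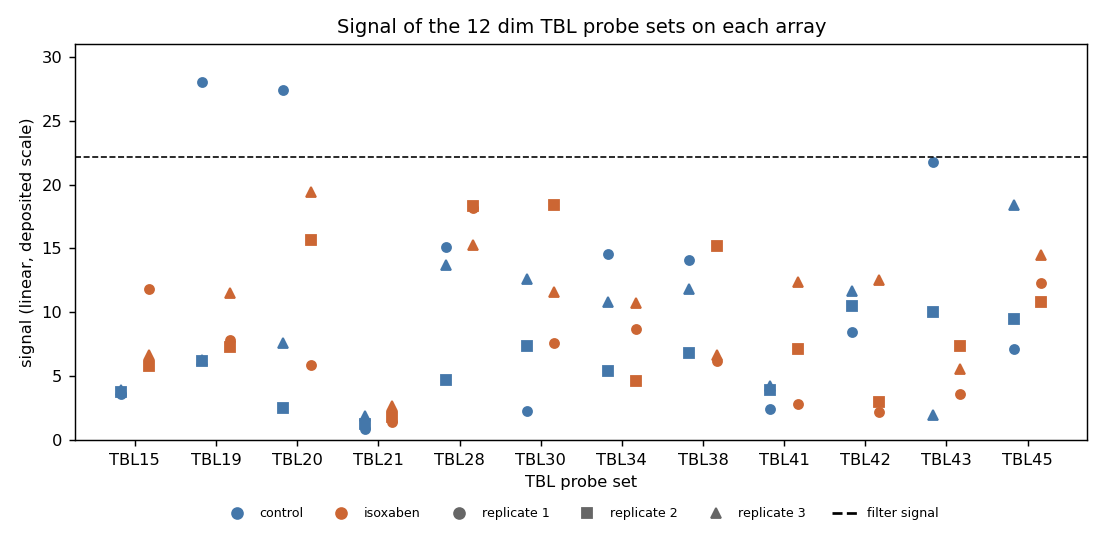
Signal (linear, deposited scale) of the 12 dim TBL probe sets on each array, with control arrays in blue, isoxaben arrays in orange and symbols for the replicates. The dashed line marks the filter signal of 22.1, which only TBL19 and TBL20 exceed, each on control replicate 1.

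Among the dim members, mean log2 values were higher with isoxaben for 7 and lower for 5, and the differences lay between -0.29 and 0.31. TBL28 and TBL30, neighbouring genes that both act on xylan, read 4.7 to 15.1 and 2.3 to 12.6 in control and 15.3 to 18.3 and 7.6 to 18.4 in isoxaben cultures. The groups of TBL28 did not overlap and those of TBL30 did. TBL34, which acts on xylan with TBL35, read 5.4 to 14.6 and 4.6 to 10.7, so no change of this partner could be called at such signals. TBL38, which is described as removing acetyl groups from pectin, read 6.8 to 14.1 and 6.2 to 15.2. TBL15 was the other dim member without overlap, at 3.6, 3.8 and 3.9 in control and 11.8, 5.8 and 6.7 in isoxaben cultures. Groups did not overlap for 63.2% of all tested probe sets, and the share over dim probe sets was not computed. These 2 of the 12 are therefore not read as changes. TBL19 and TBL21 are also neighbours, and TBL21 read 0.9 to 2.7 over all 6 arrays.

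Of the 3 probe sets of the family that the annotation names by locus, only the second of TBL40 was called, as higher. Among all tested probe sets 29.4% were called higher. TBL40 (AT2G31110) has 2 probe sets. The first read 56.9, 63.2 and 57.9 in control and 64.7, 89.0 and 73.6 in isoxaben cultures, with a log2 change of 0.28 ± 0.13 that did not pass (limma adjusted p = 0.104). The second read 60.7, 60.3 and 57.4 and then 91.2, 90.0 and 89.5, with a log2 change of 0.49 ± 0.11 (limma adjusted p = 0.00338). Neither overlapped between groups and both were higher with isoxaben, so the probe sets differ in the call and share the direction. The second title set alone gave 0.34 and 0.50 for them, and the first gave 0.15 and 0.48.

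TBR (AT5G06700), needed for crystalline cellulose in the secondary wall of trichomes, gave opposite differences in the title sets. Its signals were 53.4, 93.3 and 107.6 in control and 65.6, 63.9 and 66.6 in isoxaben cultures. Control replicate 1 lay below every isoxaben array and the other controls lay above them all. Over the 6 arrays the log2 change was -0.27 ± 0.20 (limma adjusted p = 0.278), within the first title set the difference was 0.23, and within the second it was -0.52. Without control replicate 1 the gene was called lower, with a log2 change of -0.51 (limma adjusted p = 0.00283).

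**Figure D5:**
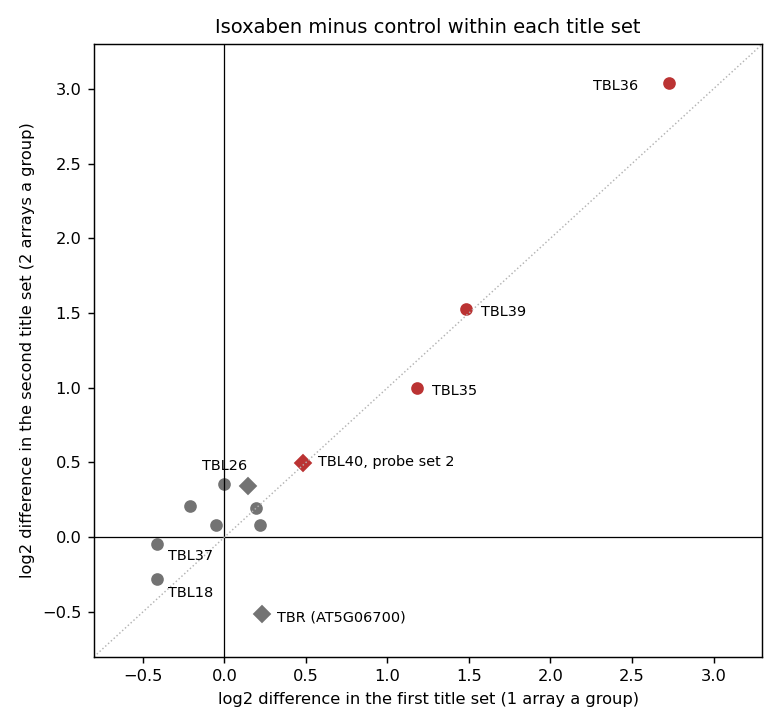
Log2 difference, isoxaben minus control, within the first title set (horizontal axis, 1 array a group) against that within the second (vertical axis, 2 arrays a group) for the 10 tested TBL members (circles) and the TBL40 and TBR probe sets (diamonds), with equality as the dotted line. TBL36, TBL39 and TBL35 lie close to that line, and TBR lies at 0.23 and -0.52.

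Partners of the TBL genes were mostly out of reach. Reduced wall acetylation (RWA) proteins supply acetyl groups in the Golgi, and none of the 4 RWA genes of the RefSeq table had a probe set named here. Pectin acetylesterases remove acetyl groups in the wall, and none of the 8 genes with such a name had one either. A list of 12 pectin acetylesterase loci from background knowledge had probe sets for 6, to which the annotation gives no name, so their place on the list could not be checked. Of these, 3 were tested, 1 was higher and none lower, beside 29.4% of all tested probe sets called higher and 27.2% lower. A count among 3 loci says little about the list as a group. The higher locus was AT3G05910, with signals of 132.7, 160.4 and 174.8 in control and 454.7, 428.0 and 427.7 in isoxaben cultures (log2 change 1.40 ± 0.12, limma adjusted p = 6.57e-06). On the list of the donor side, AT3G03210, likewise without a name in the annotation, was the only one of 5 loci tested and changed by 0.08 ± 0.16.

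The 2 tested xylan synthesis genes, whose products make the polymer that TBL35 acetylates, did not pass. Of 15 listed loci, 4 had a named probe set and 2 were tested. Among all tested probe sets 56.6% were called, and 2 loci say little about the list as a group. GUT1, a xylan backbone enzyme, had signals of 347.2, 144.5 and 165.5 in control and 137.6, 135.5 and 106.8 in isoxaben cultures, with a log2 change of -0.63 ± 0.27 (limma adjusted p = 0.0687). The groups did not overlap, and control replicate 1 was far above the other controls. GUT2, its close relative, had means of 74.4 ± 31.6 and 51.4 ± 3.26 and a log2 change of -0.37 ± 0.21. Within the second title set the differences were -0.32 and -0.07, against -1.24 and -0.97 in the first. IRX15 and IRX15-L, needed for normal xylan length, were dim.

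Genes next to TBL members on the chromosome, by the order of protein-coding genes in RefSeq, changed in both directions. Of 17 tested neighbours that are not members, 11 were called, which is 64.7% beside 56.6% of all tested probe sets, with 4 higher and 7 lower. The gene before TBL36, AT3G54250, rose from 19.6 ± 7.79 to 129 ± 10.8 (log2 change 2.05 ± 0.18), and the gene after it, AT3G54270, fell from 71.4 ± 10.8 to 33.7 ± 3.48 (-0.81 ± 0.14). Around TBL26, GT72B1, a glycosyltransferase, fell from 940 ± 117 to 331 ± 23.4 and AT4G01090 from 141 ± 10.3 to 48.5 ± 6.57, with log2 changes of -1.46 and -1.29, while TBL26 did not pass. The gene before TBL23, 3xHMG-box1 of the chromosome-binding HMG-box family, rose by 1.47 ± 0.11 on the log2 scale. These 5 of the 11 passed limma with adjusted p up to 0.000735 and were chosen for mention after their values were seen.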

How the data were processed

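Per the labels' protocols, total RNA was turned into biotin-labelled cRNA from an oligo-dT primer. The deposited table holds linear signal intensity values, 1 per probe set and array, which the authors had scaled, as means trimmed by 2% per tail agreed between arrays (100.006 to 100.008). How they were summarised from single probes is not stated in the labels used, and precision is limited by having 6 arrays. After removal of 64 control probe sets, tests used log2(signal + 16), which understates changes of dim genes, and probe sets with a mean below the 40th percentile were dropped. Isoxaben was tested against control over the whole table with limma 3.58.1 in R 4.3.3 (intensity trend, two-sided, Benjamini-Hochberg). The fit was also run on simulated arrays with independent noise and known changes in a small share of probe sets, all bright. In these data 56.6% of tested probe sets were called and 1 control array stood apart, so that run checks the code and not the error rates here.

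Groups came from the titles. The first array of each group has no number in its label and was numbered 1. Same-numbered samples deviated together (correlations over probe sets of 0.207, 0.110 and 0.128), and different numbers of the second title set did so at 0.101 and 0.118. Within the second title set, same and different numbers thus correlated in the same range, so these values do not show pairing by number there. The labels state no pairing. The main fit therefore used none, and the replicate number served as a block in an alternative only. No 2 arrays shared over 1.44% of equal values. Names came from the platform annotation (13513 probe sets with 1 gene, 503 with several, 8730 unnamed here), and all 22 members matched RefSeq by gene identifier. Every member was named, and those past the threshold by 2-fold got the signal of each array. Members and lists were chosen with earlier results of these data known. Alternatives were quantile normalization, median centring, pseudocounts of 1 and 64, no filter or a 60th percentile filter, array weights, a prior variance without trend, replicate or title set blocks, only the second title set, and omission of each array in turn.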

Additional observations from a re-analysis of the deposited data

How the results depend on the processing

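TBL36, TBL39 and TBL35 stayed higher and past the threshold under each alternative in which they were tested (17, 17 and 16 settings, with limma log2 changes of 2.28 to 3.26, 1.38 to 1.54 and 0.63 to 1.36). The filter at the 60th percentile dropped TBL35 and left 5 members tested. No member was lower as analysed, and 1 was (TBL18) with quantile normalization, with centring on array medians, with the 60th percentile filter, with the title set as a block and with array weights. Array weights also raised the count of higher members to 5, adding TBL26 and TBL32. Leaving out each array gave 3 to 4 higher members and none lower, and the second title set alone 4, TBL26 being added. With the replicate block 3 members were higher and none lower, and the calls of 4250 higher and 3913 lower probe sets stood against 4011 and 3715 without it, so it changed no call of a member. Array weights gave 5258 and 4613. Some small changes turned sign without passing. Leaving out each array gave -0.0889 to 0.191 for TBL23, -0.0903 to 0.115 for TBL16 and -0.339 to 0.00586 for TBL37, and TBL16 was at -0.0111 with median centring and -0.00494 with array weights. TBR was called lower with array weights (-0.56), in the second title set and without control replicate 1, and the first TBL40 probe set higher with array weights (0.38) and in the second title set (0.34). The causes were not tested. Signals near or below the filter limit what can be seen for the 12 dim members.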
